A study of Homo sapiens with 18 samples.

Results

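SEMA3F, its neuropilin receptors NRP1 and NRP2, and the plexins PLXNA1 and PLXNB2 were followed at the mRNA level in MEL624 cells edited at PCIF1. MEL624 is an established human melanoma line, and PCIF1 methylates the adenosine that follows the mRNA cap. The groups were KO1 and KO2, each a single PCIF1 knockout clone, and a control line with wild-type genotype that carried a random sgRNA; all were grown in the same serum-supplemented medium. Each line gave 3 input RNA-seq libraries, A to C, which the series design names as biological replicates, so 9 libraries were compared, and 9 further libraries of m6A-immunoprecipitated mRNA were not analysed here. The 5 genes were listed by name, and all 5 were found among the 15258 genes of the deposited table after their Ensembl identifiers were matched to symbols. SEMA3F was selected on its measured difference from control, a larger fall in KO1 than in KO2, so its values in these lines are given as a description, with no test. The receptors were listed beside it with earlier results of these data known, so their p-values are not free of that choice. All 5 genes were among the 14512 with a mean of at least 1 TPM that were tested. TPM is a transcript level normalised to gene length, with each library summing to 1000000.

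Semaphorins are guidance proteins that steer the movement of axons, vessels and tumour cells. SEMA3F is secreted, binds neuropilins, chiefly NRP2, and signals through a plexin partner of the neuropilin, which acts on small GTPases and the actin cytoskeleton. Neuropilins also bind growth factors of the VEGF family, and PLXNB2 is best known as a receptor of class 4 semaphorins rather than of SEMA3F. In experimental melanoma SEMA3F is known as an inhibitor of vessel growth and spread.

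The stretches of DNA around the annotated starts are shown because PCIF1 acts on transcripts whose first base is adenosine. RefSeq sequences of build GRCh38.p14 were found for 4 of the 5 genes, and NRP1 had no entry. Each line below runs 5′ to 3′ on the strand of the gene, with the annotated start base in a capital. SEMA3F has 3 annotated starts in that table, of which 2 lie close together and the last lies further into the gene.
SEMA3F start 1, chr3:50154998-50155077, plus strand: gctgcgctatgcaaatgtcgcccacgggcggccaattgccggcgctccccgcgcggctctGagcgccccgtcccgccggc
SEMA3F start 2, chr3:50155264-50155343, plus strand: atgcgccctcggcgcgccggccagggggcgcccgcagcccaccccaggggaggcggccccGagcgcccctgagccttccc
SEMA3F start 3, chr3:50158959-50159038, plus strand: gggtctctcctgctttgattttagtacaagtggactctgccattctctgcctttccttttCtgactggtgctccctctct
NRP2, chr2:205682441-205682520, plus strand: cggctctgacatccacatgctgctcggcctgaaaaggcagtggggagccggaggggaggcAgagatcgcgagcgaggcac
PLXNA1, chr3:126983055-126983134, plus strand: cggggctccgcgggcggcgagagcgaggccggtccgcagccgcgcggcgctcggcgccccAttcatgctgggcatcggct
PLXNB2, chr22:50301650-50301729, minus strand: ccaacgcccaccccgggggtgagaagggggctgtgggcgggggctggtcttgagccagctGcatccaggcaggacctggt
The annotated start base was A for NRP2 and PLXNA1, G for PLXNB2 and for both upstream starts of SEMA3F, and C for its last start. Over 35116 annotated starts in the table, 44.4% began with A, 33.6% with G and 14.7% with C. The starts used in these cells were not measured. The gene coordinates given below, from another annotation, begin upstream of these starts. They begin at 50307646 against 50301669 for PLXNB2, 205681990 against 205682501 for NRP2 and 126982693 against 126983115 for PLXNA1. The E-box CACCTG, the motif bound by the repressor ZEB1, was searched on both strands (CACCTG or CAGGTG) in the 300 bases from 250 before each start. It was found once, 137 bases before the first start of SEMA3F, and in 20.6% of all windows.

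The reads recovered on genes numbered 7848089 to 11393206 per library. PCIF1 itself stood at 24.7, 22.0 and 25.3 TPM in KO1, at 58.0, 64.7 and 58.1 TPM in KO2, and at 55.2, 62.0 and 55.6 TPM in control, so the KO1 libraries lay below all others. An edit need not lower the transcript, and the level in KO2 checks neither genotype nor label. Of 10 melanocyte lineage markers 2 were tested, MITF and ERBB3, and the other 8, SOX10, PMEL and MLANA among them, were not among the genes with values analysed here. MITF and ERBB3 summed to 24.9 to 30.04 TPM in KO1, 48.6 to 52.7 TPM in KO2 and 39.6 to 42.1 TPM in control, nearly all of it MITF. On the log2 scale MITF fell by 0.50 in KO1 (limma adjusted p = 0.000531) and rose by 0.43 in KO2 (limma adjusted p = 0.00127). ERBB3 fell by 2.16 in KO1 (limma adjusted p = 0.000106) and by 1.91 in KO2 (limma adjusted p = 0.000195). ERBB3 averaged 0.810 TPM in KO1 and 0.959 TPM in KO2, on 58 and 64 reads, and 3.56 TPM in control. It reached the mean of 1 TPM only through control, so the test of its fall is not free of that filter. Of 6 endothelial markers only ESAM and EGFL7 had values, while PECAM1, CDH5, VWF and TEK had none. These 2 summed to 16.0 to 16.9 TPM in KO1, 15.5 to 17.7 TPM in KO2 and 8.57 to 9.55 TPM in control. No leukocyte marker of 4 had a value. Of 5 epithelial markers only KRT8 and KRT18 had values, while EPCAM, CDH1 and KRT19 had none. KRT8 and KRT18 summed to 948 to 988 TPM in KO1, 851 to 928 TPM in KO2 and 1061 to 1082 TPM in control. Of 6 fibroblast markers 3 had values, COL1A1, LUM and PDGFRB. They summed to 12.8 to 13.5, 10.8 to 11.4 and 12.9 to 13.1 TPM in KO1, KO2 and control, but the members went opposite ways. LUM had 57 reads over the KO1 libraries, 26 over the KO2 libraries and 1 over the control libraries. PDGFRB fell by 0.28 in KO1 (limma adjusted p = 0.0193) and by 0.36 in KO2 (limma adjusted p = 0.00596). Of 4 neuronal and glial markers only TUBB3 and RBFOX3 had values. They summed to 171 to 185 TPM in KO1, 152 to 162 TPM in KO2 and 179 to 192 TPM in control. In bulk RNA, fewer cells of a type and less RNA per cell cannot be told apart, and the part of these markers in the results below was not tested. With a single control line and a single clone for each knockout, the spread behind each p-value is that among libraries grown from the same line, and clone and edit cannot be told apart.

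SEMA3F, the secreted ligand (ENSG00000001617, chromosome 3, 50155045 to 50189075 in hg38, plus strand), was below control in both clones and lowest in KO1. It stood at 45.5, 46.3 and 48.6 TPM in KO1, at 77.0, 75.7 and 65.4 TPM in KO2, and at 93.2, 97.6 and 97.7 TPM in control. No library of any line overlapped another line's range, and KO2 replicate C was the low one of its line. The values rested on 549 to 649 reads per KO1 library, 805 to 938 per KO2 library and 1131 to 1461 per control library. The means were 46.8 ± 1.6 TPM in KO1, 72.7 ± 6.37 TPM in KO2 and 96.2 ± 2.59 TPM in control (SD, n = 3 each). The log2 fold change was -1.04 (SE 0.0629) in KO1 and -0.41 (SE 0.0629) in KO2, which left 48.7% and 75.4% of the control level on the log scale. Across all tested genes, 20.7% lay wholly below control in KO1, 21.4% did so in KO2, and 17.0% lay wholly higher in KO2 than in KO1; the choice of SEMA3F used these contrasts. SEMA3F stood above 73.4% of tested genes in KO1, 82.6% in KO2 and 87.3% in control. Its locus overlaps an annotated antisense transcript, SEMA3F-AS1, and a microRNA gene; the libraries were directional, but the sources used do not say whether counting took strand into account, and without it reads of the antisense gene cannot be told apart.

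**Figure D1:**
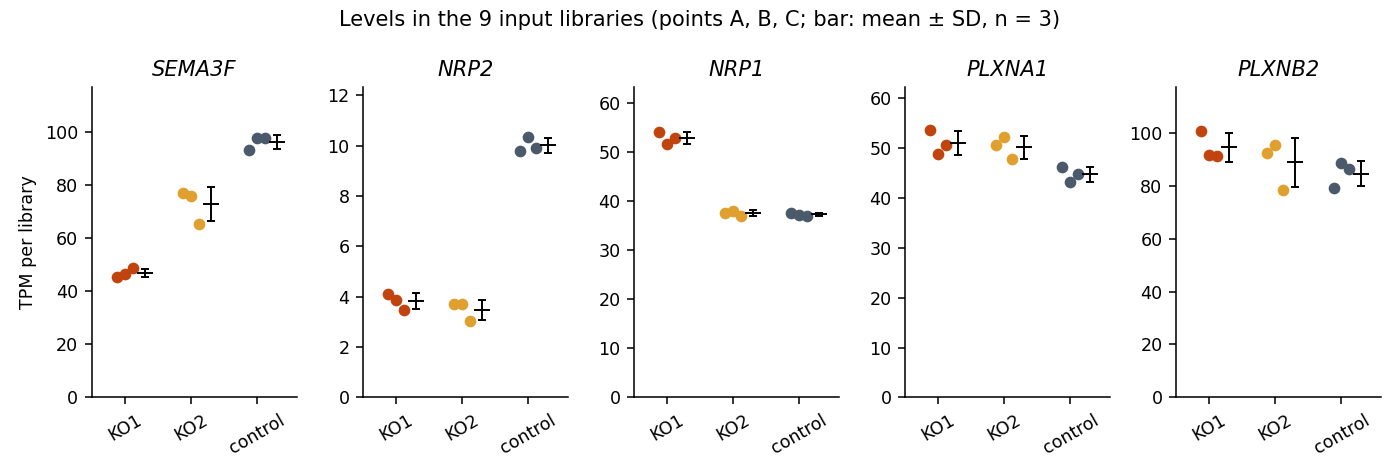
Levels in TPM (vertical axes, each from 0) of the 5 genes in the libraries of KO1, KO2 and control, with points for replicates A to C and bars for the mean ± SD (n = 3). SEMA3F falls in 3 separate bands, NRP2 is near 4 TPM in both clones against 10.0 TPM in control, and NRP1 stands apart in KO1 at 52.9 TPM.

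SEMA3F lies on the short arm of chromosome 3 among genes that were higher in KO2. Of its 20 nearest tested neighbours, 10 on each side between positions 49716829 and 50350826, 13 rose and 1 fell in KO2 against control, with a median log2 fold change of 0.35, whereas 15.6% of all tested genes rose, 14.8% fell and the median of all was 0.01. In KO1 against control 4 of the 20 rose and 3 fell, with a median of 0.03, while 20.2% of all genes rose and 14.1% fell. RBM5, an RNA-binding splicing regulator 36.0 kb upstream, rose on the log2 scale by 0.66 in KO2 and by 0.36 in KO1 (limma adjusted p = 1.09e-05 and 0.000552). GNAI2, a G protein subunit 37.2 kb downstream, rose by 0.28 in KO2 (limma adjusted p = 0.000156) and had a log2 fold change of 0.02 in KO1 (limma adjusted p = 0.696). SEMA3F lay below all 20 neighbours in KO1 and below 19 of 20 in KO2. The neighbour set was chosen with earlier results of these data known and is a description.

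When a running median of 51 neighbouring tested genes was subtracted from each library, the difference of SEMA3F from control changed to -0.75 in KO2 and stayed at -1.06 in KO1 on the log2 scale. The running median itself differed from control by 0.34 at SEMA3F in KO2 and by 0.02 in KO1. The difference between the clones, KO2 minus KO1, was 0.63 as deposited and 0.31 after that subtraction. Whether DNA copy number differs between the lines was not measured.

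**Figure D2:**
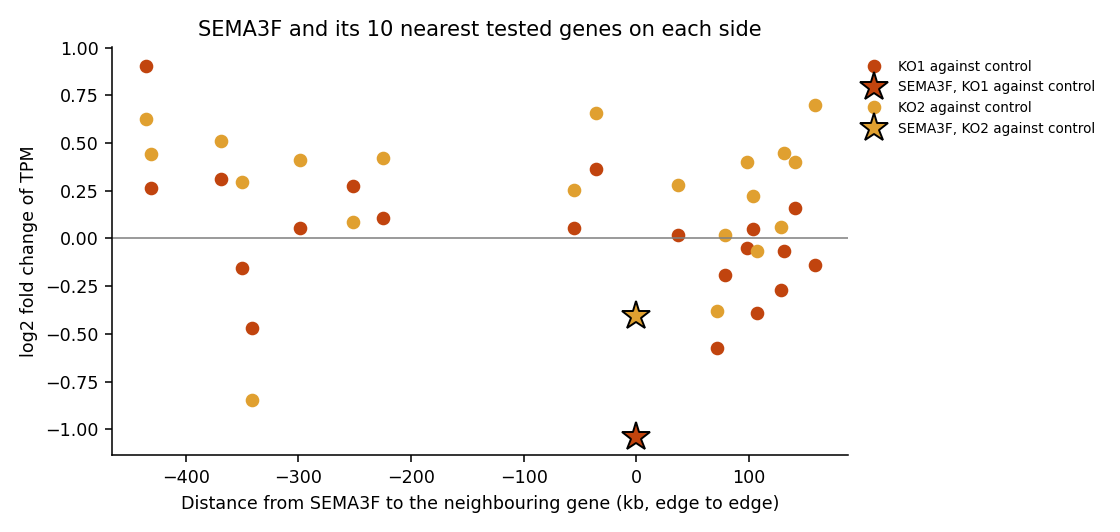
Log2 fold change of TPM (vertical axis) of SEMA3F (stars) and its 20 nearest tested genes (circles) against the distance in kb from SEMA3F (horizontal axis), for KO1 and KO2, each against control. Most KO2 circles lie above 0, with a median of 0.35, while the stars lie at -1.04 in KO1 and -0.41 in KO2.

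The genes whose centred log2 TPM over the 9 libraries was closest to that of SEMA3F, by root mean square difference, were NME3, CCBE1, IMPA2, FCHSD1, NCAM2 and SMO. NME3, a nucleoside diphosphate kinase on chromosome 16, was closest with a difference of 0.0705 and stood at 24.8 TPM in KO1, 38.6 TPM in KO2 and 50.1 TPM in control. CCBE1, a secreted factor needed for VEGFC maturation, had a difference of 0.0786 and stood at 17.6, 26.1 and 36.0 TPM in KO1, KO2 and control. The other 4 genes had differences of 0.0975 to 0.124. The likeness is a description over 9 libraries of 3 lines.

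NRP2, the neuropilin that SEMA3F chiefly binds (ENSG00000118257, chromosome 2, 205681990 to 205798133 in hg38, plus strand), fell in both clones to a similar low level. It stood at 4.12, 3.87 and 3.49 TPM in KO1, at 3.71, 3.70 and 3.02 TPM in KO2, and at 9.80, 10.3 and 9.92 TPM in control. Every knockout library lay below every control library, and the clones overlapped each other. The counts were 125 to 156 reads per KO1 library, 113 to 130 per KO2 library and 345 to 442 per control library. Its log2 fold change was -1.39 (SE 0.124, limma adjusted p = 3.1e-05) in KO1 and -1.53 (SE 0.124, limma adjusted p = 1.36e-05) in KO2. KO2 minus KO1 was -0.14, with a 95% interval of -0.42 to 0.14 (limma adjusted p = 0.434). On the log2(TPM + 5) scale, which understates changes of low genes, the folds shrank to -0.77 in KO1 and -0.83 in KO2 and remained past the threshold. The nearest tested genes, PARD3B and INO80D, lay on either side; PARD3B did not pass in KO1 or KO2 (limma adjusted p = 0.991 and 0.934), and INO80D rose by 0.65 in KO1 (limma adjusted p = 0.000866) and had a value of 0.13 in KO2. Of 20 neighbours of NRP2, 6 rose and 3 fell in KO1 (20.2% and 14.1% of all tested genes), and 2 rose and 3 fell in KO2 (15.6% and 14.8%). A lncRNA gene is annotated on the opposite strand within NRP2, so the limit on strand holds here too.

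NRP1, the neuropilin that also binds VEGFA and the class 3 semaphorin SEMA3A (ENSG00000099250, chromosome 10, 33177492 to 33336262 in hg38, minus strand), rose in KO1 and not in KO2. It stood at 54.1, 51.7 and 53.0 TPM in KO1, at 37.6, 38.1 and 37.0 TPM in KO2, and at 37.7, 37.2 and 37.1 TPM in control. The KO1 libraries lay wholly above the others, while KO2 and control overlapped; 29.1% of all tested genes lay wholly higher in KO1 than in control, and 26.0% wholly lower in KO2 than in KO1. In KO1 the log2 fold change was 0.50 (SE 0.0423, limma adjusted p = 2.1e-05). In KO2 it was 0.01, with a 95% interval of -0.085 to 0.10 (limma adjusted p = 0.893). The clones themselves differed, with KO2 minus KO1 at -0.49 (SE 0.0423, limma adjusted p = 3.22e-05). The next tested genes on chromosome 10 were ITGB1-DT, a long noncoding RNA gene, which passed in neither clone (limma adjusted p = 0.788 in KO1, 0.107 in KO2), and the cell polarity gene PARD3. PARD3 fell by 0.36 in KO1 (limma adjusted p = 0.000231) and by 0.45 in KO2 (limma adjusted p = 5.18e-05). Across 20 neighbours of NRP1 the median log2 fold change was -0.07 in KO1. NRP1 also overlaps an annotated lncRNA gene on the opposite strand and RN7SL398P on its own strand, whose reads cannot be told apart without knowing how they were assigned.

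NRP2 made up a smaller part of neuropilin mRNA in both clones. Its share of summed NRP1 and NRP2 TPM was 7.07, 6.97 and 6.17% in KO1, 8.98, 8.85 and 7.54% in KO2, and 20.6, 21.8 and 21.1% in control. The ranges of the 3 lines did not overlap. Summed neuropilin TPM was 56.8 ± 1.35 in KO1, 41.1 ± 0.910 in KO2 and 47.4 ± 0.300 in control (SD, n = 3 each), highest in KO1 and lowest in KO2. Among the 6 class 3 semaphorins with values, SEMA3F made up 22.1, 22.7 and 24.5% of the TPM in KO1, 33.6, 31.8 and 30.5% in KO2, and 38.8, 40.5 and 40.7% in control, again with no overlap between the lines. These shares are descriptions with no test.

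**Figure D3:**
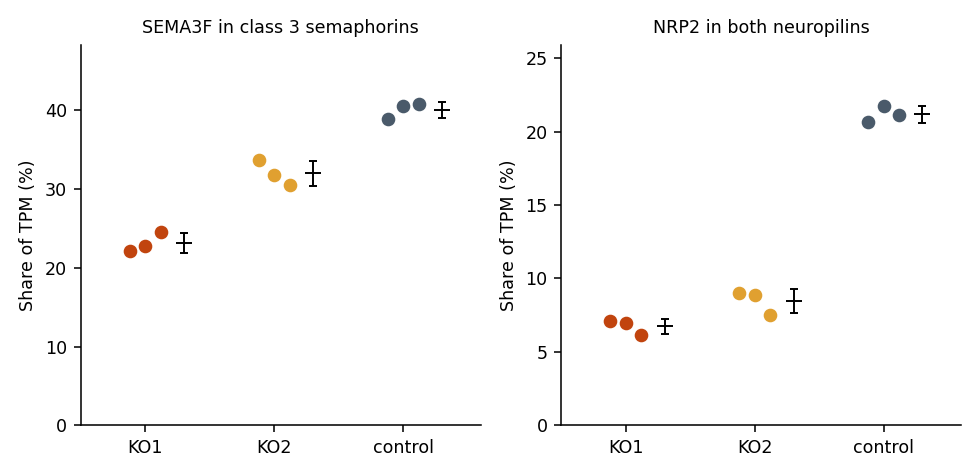
Share in percent (vertical axes, from 0) of SEMA3F in class 3 semaphorin TPM and of NRP2 in summed neuropilin TPM, with points for replicates A to C of KO1, KO2 and control and bars for the mean ± SD (n = 3). SEMA3F shares lie at 22.1 to 24.5% in KO1, 30.5 to 33.6% in KO2 and 38.8 to 40.7% in control, and NRP2 shares average 6.74% in KO1, 8.45% in KO2 and 21.2% in control.

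PLXNA1, a type A plexin that passes on class 3 semaphorin signals with neuropilins (ENSG00000114554, chromosome 3, 126982693 to 127037389 in hg38, plus strand), was slightly higher in both clones. It stood at 53.6, 48.8 and 50.6 TPM in KO1, at 50.7, 52.2 and 47.7 TPM in KO2, and at 46.3, 43.2 and 44.8 TPM in control. Each knockout library lay above each control library, and the clones overlapped; 22.3% of all tested genes lay wholly higher in KO2 than in control. The log2 fold change was 0.19 (SE 0.0544, limma adjusted p = 0.0238) in KO1 and 0.16 (SE 0.0544, limma adjusted p = 0.0443) in KO2. These calls were not stable. The KO1 call ended without control replicate B or C or KO1 replicate A or C (adjusted p 0.0891, 0.0573, 0.0839 and 0.0585). The KO2 call ended without control replicate A, B or C, KO1 replicate C, or KO2 replicate A or B (adjusted p 0.0512, 0.145, 0.0933, 0.0639, 0.11 and 0.123). Of its neighbours, CHCHD6, a mitochondrial cristae gene, fell by 0.34 in KO1 (limma adjusted p = 0.0103) and by 0.63 in KO2 (limma adjusted p = 0.000296), and TPRA1 had values of -0.10 and -0.08, neither past the threshold.

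PLXNB2, a plexin that binds class 4 semaphorins (ENSG00000196576, chromosome 22, 50274979 to 50307646 in hg38, minus strand), did not pass the test in either clone. It stood at 101, 91.5 and 91.2 TPM in KO1, at 92.5, 95.6 and 78.4 TPM in KO2, and at 79.2, 88.5 and 86.3 TPM in control. The KO1 libraries lay above the control libraries, and the KO2 libraries overlapped them, with replicate C the lowest of all 9. In KO1 the log2 fold change was 0.16, with a 95% interval of -0.014 to 0.33 (limma adjusted p = 0.142). In KO2 it was 0.07, with a 95% interval of -0.11 to 0.24 (limma adjusted p = 0.564). Its neighbour MAPK11, a p38 kinase gene, fell by 0.65 in KO1 (limma adjusted p = 0.00717) and had a value of -0.33 in KO2, and PPP6R2 on the other side passed in neither clone.

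Of the 4 receptors, 3 passed in KO1 (NRP1 and PLXNA1 up, NRP2 down) and 2 in KO2 (PLXNA1 up, NRP2 down), against 34.3% and 30.4% of all tested genes. NRP1 alone of the 4 passed between the clones, against 28.7% of all genes. The members were chosen with earlier results of these data known, so these counts are descriptions. The split of all calls depends on the scaling: the higher share was 58.9% in KO1, 51.3% in KO2 and 41.1% for KO2 against KO1 as deposited, and 49.7%, 54.7% and 55.5% with libraries set to a common median. Ordered by TPM, the levels were PLXNB2, NRP1, PLXNA1, SEMA3F and NRP2 in KO1, where NRP1 and PLXNA1 overlapped. In KO2 the order was PLXNB2, SEMA3F, PLXNA1, NRP1 and NRP2, and in control SEMA3F, PLXNB2, PLXNA1, NRP1 and NRP2, with no overlap of neighbours in either.

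Other semaphorins were mixed. The gene lists from here on were chosen with earlier results of these data known, so their counts are descriptions. Of 19 listed, 16 had values and 12 were tested; in KO1, 2 rose and 4 fell, against 20.2% and 14.1% of all tested genes, with a median log2 fold change of -0.16 (0.04 over all). In KO2, 2 rose and 5 fell, against 15.6% and 14.8% of all, with a median of -0.23 (0.01 over all). SEMA3C, a secreted ligand of both neuropilins, rose to 51.9 ± 0.757 TPM in KO1 and 51.3 ± 1.10 TPM in KO2, against 28.9 ± 0.270 TPM in control (limma adjusted p = 5.31e-07 and 6.33e-07). SEMA6B, a membrane-bound semaphorin, fell by 0.94 on the log2 scale in KO1 (limma adjusted p = 0.0014) and by 0.74 in KO2 (limma adjusted p = 0.00569). In KO1 and KO2, SEMA4B fell by 0.63 and 0.58, SEMA4F fell by 0.44 and 0.35, and SEMA6C, at 65 to 125 reads per line, rose by 0.97 and 1.08. The fall of SEMA4F in KO2 lay near the threshold (limma adjusted p = 0.0483).

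Among the 5 other plexins tested, 3 rose in KO1 with none lower (20.2% and 14.1% of all tested genes), and in KO2 3 rose with 1 lower (15.6% and 14.8% of all). The median log2 fold change was 0.36 in KO1, where that of all genes was 0.04, and 0.24 in KO2, where it was 0.01. PLXNB1, a receptor of SEMA4D, rose by 0.36 in KO1 (limma adjusted p = 0.0319) and by 0.50 in KO2 (limma adjusted p = 0.00747). It lies on the short arm of chromosome 3, as SEMA3F does. PLXND1, a receptor of SEMA3E, rose by 0.19 and 0.24 (limma adjusted p = 0.0437 and 0.0203). PLXNB3 rose by 0.34 in KO1 (limma adjusted p = 0.0452) and had a log2 fold change of 0.04 in KO2. The KO1 calls of these 3 lay near the threshold, and whether they hold under the alternatives was not tested. PLXNA3, which can partner NRP2, had a log2 fold change of 0.73 in KO1 (limma adjusted p = 0.0687) and rose by 1.26 in KO2 (limma adjusted p = 0.00679). PLXNA2 stood at 1.71 ± 0.283 TPM in KO1, 0.276 ± 0.0911 TPM in KO2 and 1.20 ± 0.230 TPM in control. Its log2 fold change was 0.51 in KO1 (limma adjusted p = 0.237) and -2.15 in KO2 (limma adjusted p = 0.000628). PLXNA2 had 188 reads over the KO1 libraries, 28 over the KO2 libraries and 133 over the control libraries. It reached the mean of 1 TPM only through KO1 and control, so the test of its fall in KO2 is not free of that filter. PLXNA3 averaged 0.827 TPM in control and reached that mean only through the clones, so its rise has the same limit.

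**Figure D4:**
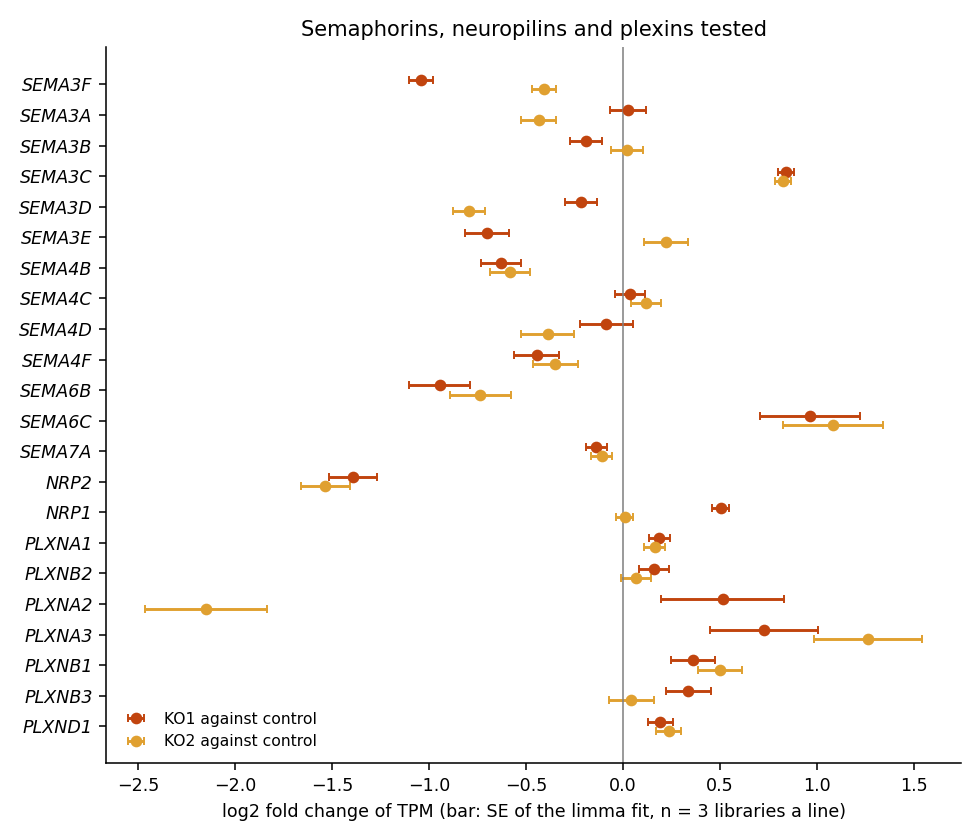
Log2 fold change of TPM against control (horizontal axis) for every tested semaphorin, neuropilin and plexin (rows), in KO1 and KO2, with bars for the SE of the limma fit (n = 3 libraries a line). SEMA3F and NRP2 lie left of 0 in both clones, SEMA3C lies right of 0 at 0.84 and 0.83, and PLXNA2 lies at -2.15 in KO2.

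Of the 7 tested genes of neuropilin partners and VEGF factors, 1 rose with 2 lower in KO1, and 1 rose with 3 lower in KO2; of all tested genes, 20.2% and 14.1% did so in KO1 and 15.6% and 14.8% in KO2. MET, the receptor of hepatocyte growth factor, fell by 0.12 in KO1 (limma adjusted p = 0.0177) and by 0.49 in KO2 (limma adjusted p = 4.52e-06). VEGFB, a factor bound by NRP1, fell by 0.19 and 0.18 in KO1 and KO2. L1CAM, an adhesion molecule that associates with NRP1, fell by 0.90 in KO2 and had a log2 fold change of 0.06 in KO1. VEGFC, a factor bound by NRP2, rose by 0.41 in KO1 and had a log2 fold change of 0.11 in KO2, and PGF, bound by NRP1, had -0.27 in KO1 and rose by 0.69 in KO2.

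Of 26 tested genes of intracellular plexin signalling, 11 rose in KO1 with 3 lower (20.2% and 14.1% of all tested genes), and 4 rose in KO2 with 6 lower (15.6% and 14.8%). KO2 against KO1, 2 were higher and 12 lower, against 11.8% and 16.9% of all. CRMP1, a collapsin response mediator, rose by 1.20 and 0.80 in KO1 and KO2 (limma adjusted p = 0.0029 and 0.0234). It rested on few reads, 123 over the KO1 libraries, 87 over the KO2 libraries and 56 over the control libraries. DPYSL3, of the same family, fell by 0.16 and 0.43 in KO1 and KO2. The small GTPase gene RRAS fell by 0.43 and 0.55, LIMK1, a kinase of cofilin, by 0.24 and 0.50, and RHOA rose by 0.17 and 0.38. RHOA lies on the short arm of chromosome 3 (49359139 to 49412998), close to the stretch of SEMA3F neighbours that were mostly higher in KO2. The part of location in its rise was not tested. Of the 3 tested convertase and repressor genes, PCSK7 rose by 0.45 and 0.34. FURIN, which cleaves class 3 semaphorins, had a log2 fold change of -0.02 in KO1 and fell by 0.29 in KO2. ZEB1, a repressor of SEMA3F, had -0.11 in KO1 and fell by 0.23 in KO2 (limma adjusted p = 0.0318). Over the 5 lists together 27 of 53 tested genes passed in KO1 and 28 in KO2, that is 50.9% and 52.8%. Between the clones 43.4% passed, and the shares of all tested genes were 34.3%, 30.4% and 28.7% in the same order. The lists were chosen with earlier results of these data known, so a share above that of all genes is a description.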

How the data were processed

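The values analysed were the deposited log2 TPM of 15258 genes in 9 input libraries. The authors' table lists, as its tools, HISAT2 2.0.4, SAMtools 1.7, featureCounts, R 3.3.3, edgeR 3.12.1 and deepTools 3.0.2 with build hg38, per the submitters' processing notes, while each tool's role, the annotation, strand use and filtering of genes were not given in the sources used. Each deposited log2 column, raised to the power of 2, sums to 1000000. A prior of 0.215 to 0.319 reads had been added, and whole reads were recovered for 100% of genes (largest distance from a whole number 5.2e-06 reads), 84602764 in all. Symbols and gene coordinates came from GENCODE 44 on hg38, which matched 15138 identifiers; sequences came from RefSeq GRCh38.p14.

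Lines were compared with limma-trend (R 4.3.3, limma 3.58.1), fitted to those log2 values as deposited for all 9 libraries, with Benjamini-Hochberg adjustment over 14512 genes averaging at least 1 TPM, two-sided, at 0.05. Fold changes of genes near the prior depend on it. The model was also run on simulated reads, with changes placed in KO1 only and the same spread setting for every gene. The simulation held no spread between clones, so it does not check the p-values against such spread. No library was a copy of another, since chi-square per degree of freedom between replicates was 1.24 to 3.96 (genes with 40 or more reads in a pair). The members and gene lists were chosen with earlier results of these data known. Named genes were the members, PCIF1, up to 5 per list (called in both clones, then in 1, then most abundant), the 6 most like SEMA3F and the nearest tested gene on each side. Alternatives were other pseudocounts, filters, scalings, fits, a replicate block, a running median, limma-voom and leaving out each library.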

Additional observations from a re-analysis of the deposited data

Results flagged for a closer look

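The difference between the clones, KO2 minus KO1 on the log2 scale, passed the limma test (adjusted p under 0.05 over all genes) for the receptor NRP1 at -0.49 and for PCIF1 at 1.33. It also passed for PLXNA2 at -2.66, L1CAM at -0.97, PGF at 0.96, MET at -0.37, VEGFC at -0.30, LIMK1 at -0.27, DPYSL3 at -0.27, FURIN at -0.26 and RHOA at 0.20 among the genes named from the lists. Of the genes next to the members it passed for RBM5 at 0.30, GNAI2 at 0.26, INO80D at -0.52, CHCHD6 at -0.29 and PPP6R2 at -0.22. PLXNA2 had 28 reads over the KO2 libraries and reached the mean of 1 TPM only through the other lines. The genes most like SEMA3F were picked for its pattern and are not counted. Of all tested genes 28.7% passed between the clones. The genes named from the lists were picked by their calls against control in these same data. PLXNA2, L1CAM, PGF, VEGFC and FURIN were picked for a call in 1 clone, which favours a difference between the clones. Their passing is therefore a description and is not to be set against the share of all genes. The corresponding difference of SEMA3F chose the gene and is not counted here.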

How the results depend on the processing

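The tests that passed for NRP1 and NRP2 kept direction and side of the threshold under all 20 alternatives. The 3 counts of pathway genes stayed within 1.5 times under all 20. With a library left out they were 20 to 28 in KO1, 19 to 27 in KO2 and 19 to 24 between the clones. The other alternatives gave 24 to 35, 22 to 34 and 18 to 26 in the same order. Calls over all tested genes moved too, in KO1 from 4975 to 3758 without control replicate B and to 5604 with limma-voom. SEMA3F in KO1 moved by more than its replicate SD to -0.97 on the log2(TPM + 5) scale and to -1.09 with limma-voom on recovered reads. With the running median of 51 neighbours subtracted, SEMA3F moved to -0.75 in KO2 against control and to 0.31 in KO2 against KO1.

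PLXNA1 in KO2, at 0.16, no longer passed without a variance trend (adjusted p = 0.07), with only the 2 lines compared (0.0623) or with the replicate block (0.0649), a setting that changed no other call of the members. Leaving out a library gave PLXNA1 0.15 to 0.22 in KO1 and 0.14 to 0.20 in KO2. Small differences that had not passed changed sign and again did not pass: NRP1 in KO2 to -0.011 with the running median and -0.0099 with limma-voom (-0.00025 to 0.020 with a library left out), NRP2 between the clones to 0.013 with the running median, and PLXNA1 between the clones to 0.026 with median centring, 0.018 with the running median and 0.0087 with limma-voom (-0.053 to 0.014 with a library left out). The cause was not tested. The deviations of same-lettered libraries of different lines had 9 correlations from -0.074 to 0.037. Differently lettered pairs spanned -0.11 to 0.12. With 3 libraries a line these values cannot show whether a letter stands for a shared batch, and the main fit used no pairing. NRP2 had the fewest reads of the 5 genes, 113 to 156 per knockout library, and so the largest counting error.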

Other observations

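The following genes were singled out after their values were seen. SEMA6D, a membrane-bound semaphorin below the tested level, had 35 reads over the KO1 libraries, 42 over the KO2 libraries and 6 over the control libraries. SEMA4G had 10 reads in KO1, 38 in KO2 and 46 in control. Among the class 3 ligands on chromosome 7, SEMA3E was higher and SEMA3D lower in KO2 than in KO1 (limma adjusted p = 0.00029 and 0.000777), while SEMA3C did not pass between the clones (limma adjusted p = 0.807). SEMA3E stood at 3.78 ± 0.203 TPM in KO1, 7.18 ± 0.438 TPM in KO2 and 6.16 ± 0.516 TPM in control, while SEMA3D stood at 11.5 ± 0.192, 7.70 ± 0.329 and 13.4 ± 0.959 TPM in KO1, KO2 and control (SD, n = 3 each).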
